A study of Mus musculus with 7 samples.

Results

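MicroRNA 21a (miR-21a) was followed through both mature strands of its hairpin, mmu-miR-21a-5p and mmu-miR-21a-3p (miR-21a-5p and miR-21a-3p), in small RNA libraries from mouse spleen CD8+ T cells. The members were taken by name, as the 2 of 1978 mature names in the deposited table that come from the mir-21a hairpin. Each stood on 1 line of the table, and both passed the filter on low counts that left 288 mature miRNAs for testing. The study set 2 CD8+ T cell subsets beside each other at 2 ages, taken from neonatal and from adult mice of the gBT-I line, which bears a transgenic T cell receptor of a single specificity. Virtual memory (VM) cells have the surface phenotype CD44hi CD122hi and acquire memory features without meeting foreign antigen, whereas true naive (TN) cells are CD44lo CD122lo. CD8+ cells were enriched on beads and sorted to over 95% purity, and every group therefore shared the transgenic receptor, the organ and the sort. There were 2 adult VM, 2 adult TN and 2 neonatal VM libraries but 1 neonatal TN library. The labels gave neither the age of the mice in days nor whether replicates came from separate mice, so the p-values speak only of the spread among these 7 libraries, and that spread may be technical.

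A primary microRNA transcript is cut in the nucleus to a hairpin and in the cytoplasm to a short duplex. The guide strand of the duplex is loaded into an Argonaute protein and directs it to transcripts that pair with the seed of the miRNA, while the passenger strand is mostly lost. In miR-21 the 5p arm is the guide. It is known as a miRNA that rises when T cells are activated and is abundant in effector and memory T cells and in many tumours, and Pdcd4 is among its studied targets.

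The mature sequences are shown because the seed, given in capitals as bases 2 to 8, sets what each arm can pair with, and because near-identical copies of the 5p arm could share its reads. They are RefSeq sequences on assembly GRCm38.p6, written 5′ to 3′.
miR-21a-5p: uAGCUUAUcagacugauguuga
miR-21a-3p: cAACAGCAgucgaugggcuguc
miR-21b: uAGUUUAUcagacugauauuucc
miR-21c: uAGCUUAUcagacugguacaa
The 5p arm lies at chr11:86584120-86584141 and the 3p arm at chr11:86584082-86584103, both on the minus strand. In the GENCODE M21 annotation the mir-21a hairpin (chr11:86584067-86584158) falls within exon 12 of Vmp1, in the untranslated part of that exon and on the same strand. Vmp1 encodes a membrane protein of the endoplasmic reticulum that takes part in autophagy. The seeds of the 5p and 3p arms differ, so the arms belong to separate seed families.

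Of the names in the deposited table, 1679 had a sequence in the reference, and among these miR-21c alone shared the seed of miR-21a-5p and none shared that of miR-21a-3p. Counting positions from 1 at the 5′ end and writing the base of miR-21a-5p first, miR-21b differs by C4U, G18A, G21U and A22C and miR-21c by A16G, G18A, U19C, U20A and G21A. The C4U change lies inside the seed of miR-21b. These copies are encoded elsewhere, miR-21b at chr3:29636768-29636790 on the plus strand and miR-21c at chr8:128278188-128278208 on the minus strand. Their counts were small, between 0.5 and 39.5 per library for miR-21b and between 0 and 11.5 for miR-21c. Together they came to at most 0.0188% of the miR-21a-5p count in any library. The deposited count of miR-21a-5p was fractional in 4 libraries, and how reads were divided among the copies is not given in the sources used here. miR-590-5p had no sequence in the reference, so its seed could not be compared, and it was listed at 0 in every library.

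Across the series, library totals ran from 1577031 to 3278449 counts, and levels are given as CPM, the count of a miRNA scaled to a common library size with TMM factors. The counts behind miR-21a-3p ran from 164 to 3396. The libraries are bulk samples, in which fewer cells of a type and less RNA per cell cannot be told apart. The 5 lymphocyte markers were all tested and summed to between 214256 and 628304 CPM. The myeloid pair of miR-223 arms summed to 6.44 to 15.9 CPM in adult VM, 1.71 to 2.16 in adult TN, 0.989 to 4.18 in neonatal VM and 1.87 in neonatal TN, and neither arm passed the filter. Of the 7 stromal and muscle markers, miR-1a-3p and miR-214-3p were at 0, and the sum was lower in adult (15.6 to 49.8 CPM) than in neonatal libraries (59.8 to 98.3 CPM). Erythroid markers summed to between 80.0 and 298 CPM, progenitor and endothelial markers to between 75.0 and 192 CPM, and epithelial markers to between 20.5 and 45.1 CPM, and the liver marker was at 0 in all libraries except 1 adult TN library. In adult cells the myeloid, erythroid, progenitor and epithelial sums were higher in both VM than in both TN libraries, as both arms of miR-21a were. In neonatal cells the progenitor and endothelial sum was again higher in VM (139 and 105 CPM) than in TN (86.5 CPM), as miR-21a was. The erythroid sum was lower in neonatal VM (80.0 and 92.0 CPM) than in TN (230 CPM), opposite to miR-21a. So were the stromal and muscle sum (71.2 and 59.8 against 98.3 CPM) and the epithelial sum (29.2 and 30.6 against 45.1 CPM), and the myeloid sum overlapped. Most of the erythroid sum was miR-486a-5p, and the largest part of the adult progenitor sum was miR-10a-5p. Their part in the results on miR-21a was not tested.

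miR-21a-5p, the guide strand, was among the most abundant miRNAs of VM cells and several times lower in TN cells. In adult VM libraries its level was 71518 and 110308 CPM, and in neonatal VM libraries 62512 and 69783 CPM. In adult TN libraries it was 16348 and 14805 CPM, and in the neonatal TN library 20011 CPM. All 4 VM libraries lay above all 3 TN libraries, and the lowest VM level was 3.12-fold the highest TN level. The adult VM libraries differed 1.54-fold from each other, more than the adult TN (1.10-fold) and neonatal VM (1.12-fold) pairs.

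In order of mean level, adult VM came first with 90913 ± 27428 CPM (SD, n = 2), then neonatal VM with 66147 ± 5141 CPM (SD, n = 2), neonatal TN with 20011 CPM and adult TN with 15577 ± 1091 CPM (SD, n = 2). The 2 VM groups were neighbours in this order and their gap was smaller than the SD in adult VM cells. As a share of all counts, miR-21a-5p made up 6.55% and 9.73% of the adult VM libraries and 8.02% and 8.88% of the neonatal VM libraries. The share was 1.47% and 1.16% in adult TN cells and 2.16% (95% Wilson interval 2.14% to 2.17%, counting error only) in neonatal TN cells. Going from TN to VM, its mean share rose by 6.82 percentage points in adult cells and by 6.29 in neonatal cells, the largest gain of any miRNA at either age. The next largest gain at both ages was that of miR-142a-5p, from a hairpin of blood cells, with 6.27 and 3.51 percentage points.

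By abundance within each library, miR-21a-5p stood at rank 4 in both adult VM libraries and at rank 3 in both neonatal VM libraries. It stood at rank 13 in both adult TN libraries and at rank 11 in the neonatal TN library. In adult VM cells the miRNAs next to it by mean level were miR-142a-5p above, and let-7f-5p, a let-7 family guide strand, below at 53419 ± 14516 CPM (SD, n = 2). In neonatal VM cells they were miR-150-5p, a miRNA of mature lymphocytes, at 72019 ± 7840 CPM and miR-142a-5p at 65430 ± 16193 CPM (SD, n = 2 each), and the gap between any pair of these 3 levels was smaller than the larger SD of the pair. In adult TN cells its neighbours were miR-25-3p at 17550 ± 783 CPM and miR-29a-3p at 13211 ± 1229 CPM (SD, n = 2 each). In the neonatal TN library they were miR-30d-5p at 22275 CPM and miR-181c-5p at 18662 CPM.

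miR-21a-3p, the passenger strand, followed the same subset pattern at a far lower level. It measured 551 and 524 CPM in adult VM libraries and 556 and 887 CPM in neonatal VM libraries. It measured 88.5 and 94.6 CPM in adult TN libraries and 189 CPM in the neonatal TN library. Again every VM library was above every TN library, with the lowest VM level 2.77-fold the highest TN level. Here the neonatal VM pair was the one that differed, by 1.60-fold, while the adult VM pair differed by 1.05-fold and the adult TN pair by 1.07-fold. In order of mean level, neonatal VM (722 ± 234 CPM, SD, n = 2) came before adult VM (537 ± 19.3 CPM, SD, n = 2), neonatal TN (189 CPM) and adult TN (91.5 ± 4.30 CPM, SD, n = 2). The gap between the VM groups was again smaller than the larger SD. The 3p arm stood between ranks 61 and 77 in VM libraries and between ranks 112 and 136 in TN libraries.

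**Figure D1:**
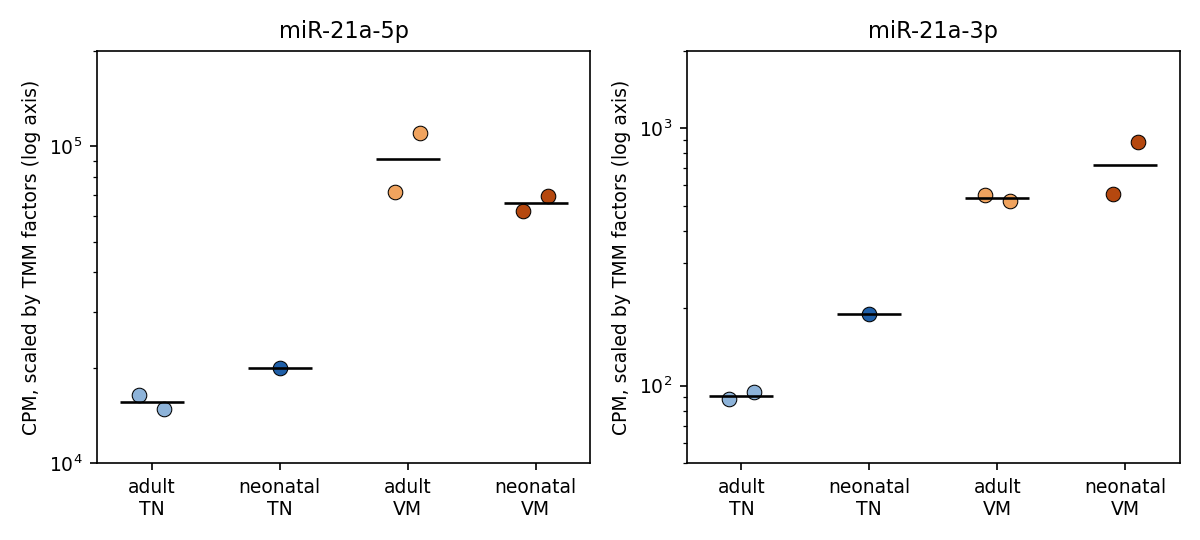
Level of miR-21a-5p and miR-21a-3p in each library (CPM scaled by TMM factors, log axis) by group, with 1 point per library and a line at the group mean. For both arms every VM library sits above every TN library, and the neonatal TN group is a single library.

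The first comparison asked how VM cells differed from TN cells over both ages. miR-21a-5p was higher in VM cells by 2.21 on the log2 scale (SE 0.24), which is 4.62-fold with a 95% confidence interval of 3.15 to 6.76, and edgeR's quasi-likelihood test gave a Benjamini-Hochberg adjusted p of 4.11e-04 over the 288 miRNAs. miR-21a-3p was higher by 2.29 (SE 0.24), 4.91-fold with an interval of 3.36 to 7.16, and the edgeR adjusted p was 3.22e-04. Both members thus rose in VM cells, in a comparison in which 24.7% of the tested miRNAs passed the same threshold of 0.05 10.8% as higher and 13.9% as lower in VM. These were 31 higher and 40 lower calls, against 58 and 25 with upper quartile factors and 59 and 27 with library totals. The VM libraries lay wholly above the TN libraries for 10.1% of the tested miRNAs. Ranked by the size of the rise, miR-21a-3p was 2nd and miR-21a-5p 3rd among the 288, after miR-1948-3p, a rare miRNA with a mean of 4.60 CPM. Among the 166 miRNAs that averaged 50 CPM or more, the miR-21a arms were first and second, ahead of miR-340-5p at 1.90, miR-30a-5p at 1.82 (not called, edgeR adjusted p = 0.0625) and miR-146a-5p at 1.82.

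**Figure D2:**
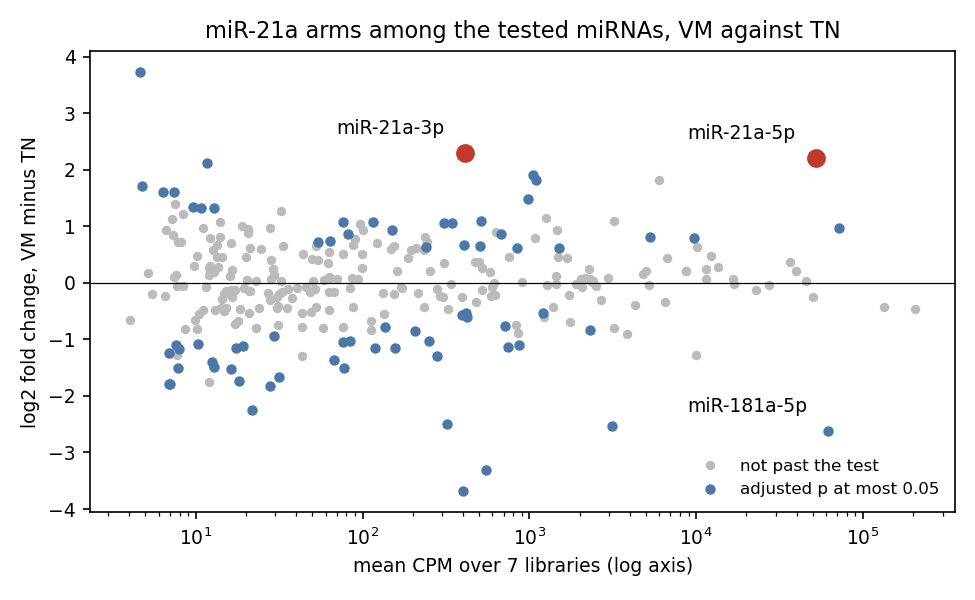
Log2 fold change of VM over TN cells at both ages (y axis) against the mean level in CPM (x axis, log scale) for the 288 tested miRNAs, with the miR-21a arms marked. Both arms stand near the top, at 2.21 and 2.29, and miR-21a-5p is far to the right among the most abundant miRNAs.

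Both arms also passed within each age. In adult cells miR-21a-5p was 5.84-fold higher in VM (log2 2.55, SE 0.22, edgeR adjusted p = 4.29e-06) and miR-21a-3p differed by 2.55 on the log2 scale (SE 0.25, edgeR adjusted p = 8.77e-06). In that comparison 38.9% of tested miRNAs were called, with 23.3% of them all higher and 15.6% lower in VM. In neonatal cells, where TN rests on 1 library assumed to vary like the other groups, miR-21a-5p was 3.31-fold higher (log2 1.72, SE 0.27, edgeR adjusted p = 0.00135) and miR-21a-3p 3.82-fold higher (log2 1.93, SE 0.31, edgeR adjusted p = 0.00149). Only 9.72% of tested miRNAs were called there, 3.12% as higher and 6.6% as lower in VM. These were 9 higher and 19 lower calls, against 38 and 14 with upper quartile factors and 21 and 14 with library totals. Among all 288 miRNAs by size of the rise, the 3p and 5p arms were 6th and 7th in adult cells and 7th and 11th in neonatal cells. Among the 166 that averaged 50 CPM or more, they were 2nd and 3rd in adult cells, after miR-30a-5p at 3.21 on the log2 scale. In neonatal cells the 3p arm was then first and the 5p arm 3rd, with miR-340-3p between them at 1.82.

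Both arms of a hairpin could be tested together for 63 hairpins. Of these 63 hairpins, both arms were called higher in VM for 4 in adult cells (6.35%) and for 2 in neonatal cells (3.17%). The adult hairpins were mir-142a, mir-21a, mir-30a and mir-98, and the neonatal hairpins were mir-21a and mir-29c, so mir-21a was the 1 hairpin in both sets. Both arms were called lower for 4 hairpins in adult cells and 1 in neonatal cells. The arms of a hairpin come from the same transcripts and are not independent of each other. Over both ages 5 hairpins (7.94%) had both arms called higher (mir-101a, mir-142a, mir-21a, mir-221 and mir-340) and 3 had both called lower, and for age over both subsets the counts were 14 and 8, without mir-21a. Some of the other hairpins rested on a rare arm, namely miR-29c-5p (mean 8.42 CPM), miR-101a-5p (9.67 CPM) and miR-221-5p (6.33 CPM). These 3 arms passed the filter on low counts only through VM libraries. The places of mir-29c, mir-101a and mir-221 in these sets are therefore weakly based.

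The second comparison asked how neonatal cells differed from adult cells, and here the arms differed in their calls. Over both subsets miR-21a-5p differed by -0.12 on the log2 scale (SE 0.22, 95% interval -0.63 to 0.39, edgeR adjusted p = 0.658). miR-21a-3p was higher in neonatal cells by 0.68 on the log2 scale (SE 0.22), 1.60-fold with an interval of 1.13 to 2.26 and an edgeR adjusted p of 0.0291. Age moved much of the table, with 53.8% of tested miRNAs called, 26.4% as higher and 27.4% as lower in neonatal cells (119 higher and 53 lower calls with library totals, against 76 and 79), so 1 called arm of 2 was near the background. The age call of miR-21a-3p was lost in 7 of 19 alternative settings. By log2 difference and edgeR adjusted p, the values were 0.55 and 0.116 with adult TN replicate 1 left out, 0.61 and 0.0806 with adult TN replicate 2 left out, and 0.73 and 0.0507 with adult VM replicate 1 left out. They were 0.52 and 0.139 without neonatal VM replicate 2 and 0.45 and 0.123 without the neonatal TN library. The other settings that lost it were the table with no filter and limma voom.

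Within VM cells neither arm passed the edgeR test for age with the settings used throughout. miR-21a-5p was -0.46 on the log2 scale in neonatal against adult VM (SE 0.20, 95% interval -0.90 to -0.01, edgeR adjusted p = 0.077). By CPM both neonatal libraries lay below both adult libraries, as for 41.3% of tested miRNAs, but by only 1.02-fold at the closest. As shares of all counts the groups overlapped, at 8.02% and 8.88% in neonatal and 6.55% and 9.73% in adult VM libraries. miR-21a-3p was 0.43 (SE 0.23, interval -0.08 to 0.93, edgeR adjusted p = 0.135). For this arm both neonatal libraries lay above both adult libraries by CPM, as for 36.8% of tested miRNAs, by 1.01-fold at the closest. In this comparison 53.8% of tested miRNAs were called, 22.9% as higher and 30.9% as lower in neonatal VM (117 higher and 49 lower calls with library totals, against 66 and 89). The 5p arm passed with no filter on low counts (-0.58, edgeR adjusted p = 0.00197), and with library totals its value was 0.054. The 3p arm passed with library totals (0.93, edgeR adjusted p = 0.00475), with a minimum of 100 CPM (0.64, 0.0297), without adult VM replicate 2 (0.44, 0.0334) and without neonatal VM replicate 1 (0.74, 0.0486). The 5p value also moved with the adult VM libraries. Without adult VM replicate 1, the lower of the pair, the difference was -0.74 with an edgeR adjusted p of 7.60e-04, and without replicate 2 it was -0.06.

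Within TN cells the single neonatal library was above both adult libraries for both arms, as it was for 47.9% of tested miRNAs. miR-21a-5p differed by 0.36 on the log2 scale (SE 0.25, interval -0.18 to 0.90, edgeR adjusted p = 0.249) and miR-21a-3p by 1.05 (SE 0.28, edgeR adjusted p = 0.00995). By this test 47.9% of tested miRNAs were called, 26.4% as higher and 21.5% as lower in neonatal TN. These were 76 higher and 62 lower calls, against 106 and 38 with library totals and 56 and 79 with upper quartile factors. The call for miR-21a-3p was lost without adult TN replicate 1 (0.88, edgeR adjusted p = 0.128) or adult TN replicate 2 (0.97, edgeR adjusted p = 0.103). The 5p arm passed with library totals (0.71, edgeR adjusted p = 0.0369), with only the TN libraries fitted (0.51, 0.00917) and without adult VM replicate 2, a library outside this contrast that enters the shared spread (0.31, 0.0305).

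The interaction asked whether the VM to TN difference itself changed with age. For miR-21a-5p the neonatal difference was smaller than the adult difference by -0.82 on the log2 scale (SE 0.32, 95% interval -1.52 to -0.13), with an unadjusted p of 0.0245 and an edgeR adjusted p of 0.141. For miR-21a-3p the value was -0.62 (SE 0.37, edgeR adjusted p = 0.309). Neither arm was called, against 7.99% of tested miRNAs, 1.74% with a positive and 6.25% with a negative interaction. These were 5 positive and 18 negative calls, against 18 and 12 with upper quartile factors and 8 and 14 with RLE factors. The 5p arm passed this test without adult VM replicate 1 (-1.07, edgeR adjusted p = 0.00175) and with no filter on low counts (-0.75, edgeR adjusted p = 0.0497).

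**Figure D3:**
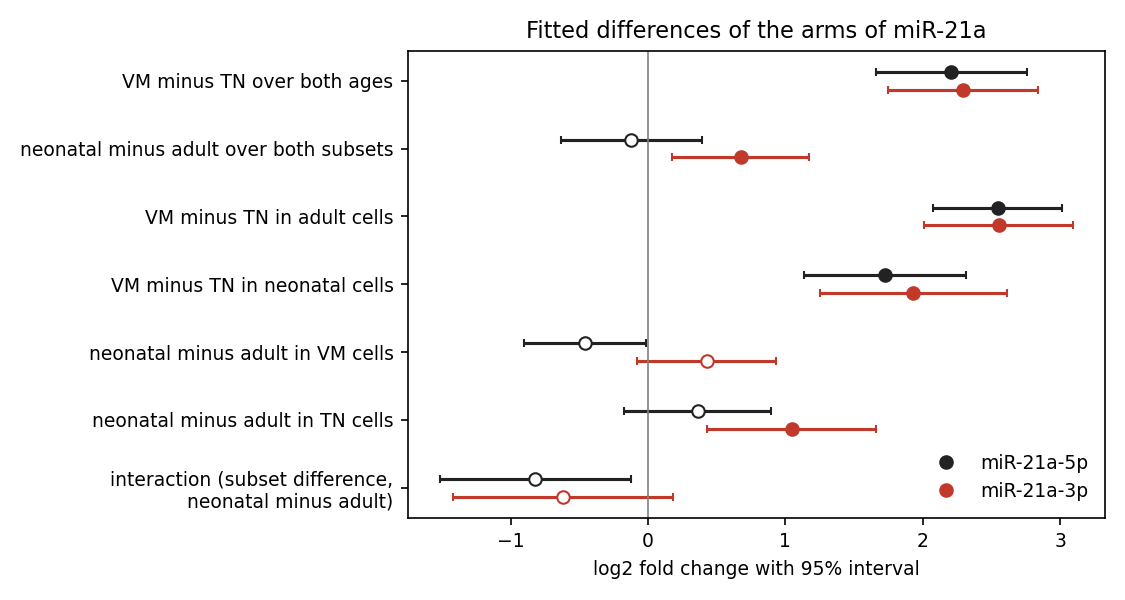
Fitted log2 differences of miR-21a-5p and miR-21a-3p in the 7 comparisons, with points for the estimates and bars for 95% confidence intervals. The VM over TN intervals lie wholly above 0 at both ages for both arms, and the age intervals of miR-21a-5p over both subsets and in TN cells cross 0.

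The balance of the arms was then read directly as the 3p share of both arms' counts, which no scaling between libraries can alter. The share was 0.765% (95% Wilson interval 0.725% to 0.806%) and 0.473% (0.449% to 0.497%) in adult VM libraries. It was 0.538% (0.462% to 0.627%) and 0.635% (0.557% to 0.724%) in adult TN libraries. It was 0.881% (0.831% to 0.934%) and 1.26% (1.21% to 1.30%) in neonatal VM libraries and 0.937% (0.865% to 1.01%) in the neonatal TN library. All 3 neonatal libraries held more of the 3p arm than all 4 adult libraries, though replicates of VM cells differed from each other beyond their counting intervals at both ages. Expressed the other way, each 3p count stood beside 130, 211, 185 and 157 counts of 5p in adult libraries and 112, 78.6 and 106 in neonatal libraries.

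The mean 3p share was 1.02% ± 0.202 (SD, n = 3) in neonatal and 0.603% ± 0.127 (SD, n = 4) in adult libraries. The log2 ratio of 3p to 5p was higher in neonatal libraries by 0.78, or 1.71-fold. An exact two-sided permutation test gave p = 0.0571, the smallest p that 3 libraries against 4 allow, and 0.114 after adjustment over the 2 arm comparisons. A limma fit over the 63 hairpins, added after seeing the data, gave 0.76 (SE 0.28) with an adjusted p of 0.0943. In that fit 17 of the 63 hairpins (27.0%) passed for age, and miR-21a was 29th by size. The 2 ages did not overlap, with neonatal above adult, for 12.7% of the hairpins.

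Between subsets the libraries overlapped in their arm balance. The mean 3p share was 0.844% ± 0.324 (SD, n = 4) in VM and 0.703% ± 0.208 (SD, n = 3) in TN libraries, the log2 ratio differed by 0.22 and the exact two-sided permutation p was 0.686. The limma value was 0.09 (SE 0.28, adjusted p = 0.785), and 0.0% of the 63 hairpins were called for subset by limma, with 11 of them at an unadjusted p under 0.05. Without neonatal VM replicate 2 the difference in the log2 ratio was -0.0025. Across the 63 hairpins the median ratio between the more and the less abundant arm was 23.5-fold, and miR-21a was 14th in how unequal its arms were.

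**Figure D4:**
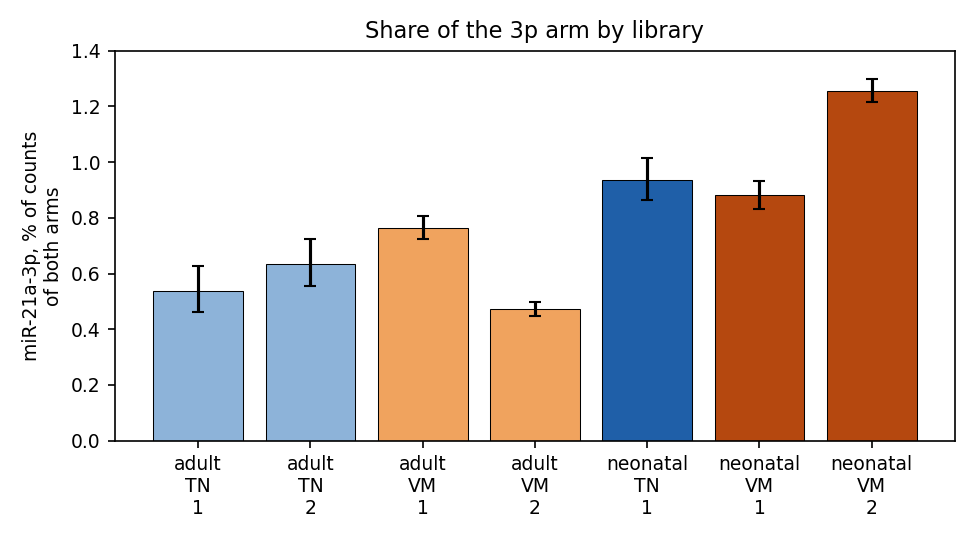
miR-21a-3p as a percentage of the counts of both arms in each library, with bars for 95% Wilson intervals that cover counting error only. The 3 neonatal libraries lie between 0.881% and 1.26% and the 4 adult libraries between 0.473% and 0.765%.

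The miRNAs whose pattern over the 7 libraries was most like that of miR-21a-5p were found by the root mean square (RMS) difference between log2 CPM profiles, each centred on its own mean. Over the 287 other tested miRNAs the median RMS difference was 1.26. The nearest profile of all was that of miR-21a-3p, at 0.46. It was followed by miR-16-1-3p at 0.54, miR-221-5p at 0.55, miR-146a-5p at 0.60, and miR-30a-5p and miR-19a-3p at 0.64. miR-219a-5p and miR-340-5p stood at 0.65 and miR-96-5p at 0.66, which makes 8 beside the 3p arm. Points in these profiles share libraries and scaling, and the values are descriptions with no test.

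Within the 8, the likeness differed by age. miR-146a-5p, a feedback inhibitor of NF-κB signalling, was highest in adult VM cells and had centred values of -0.15 and 0.01 in neonatal VM libraries, where miR-21a-5p had 0.64 and 0.80. miR-30a-5p likewise had -0.20 and -0.10 in neonatal VM libraries. miR-340-5p went the other way, with 1.15 and 1.60 in neonatal VM and -0.25 and 0.95 in adult VM libraries. miR-221-5p had centred values of 0.35 to 1.02 in VM and -0.92 to -0.66 in TN libraries, so these did not overlap at either age. It was rare, however, with counts of 20 and 21 in adult VM and 17 and 46 in neonatal VM libraries. Its counts were 6 and 6 in adult TN and 9 in neonatal TN libraries. It passed the filter on low counts only through the neonatal VM libraries, so its likeness to miR-21a-5p is weakly based. The same limit holds for miR-96-5p, which had no more than 36 counts in any library and passed the filter only through VM libraries. The closest mirror images were miR-181a-1-3p at 0.35, miR-181a-5p at 0.48, miR-669c-5p and miR-466f-3p at 0.49 and miR-150-3p at 0.55. Not all of them ran opposite in every library. miR-669c-5p had centred values of 0.28 and -1.88 in adult VM libraries, and miR-466f-3p had -0.05 in the neonatal TN library. miR-181a-5p, which sets T cell receptor sensitivity in developing T cells, had centred values of -1.32 and -1.32 in adult VM and -0.66 and -0.98 in neonatal VM libraries, against 0.85, 1.35 and 2.07 in the TN libraries. With library totals in place of TMM factors, 7 of the 8 nearest but 1 of the 5 mirror profiles were the same.

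**Figure D5:**
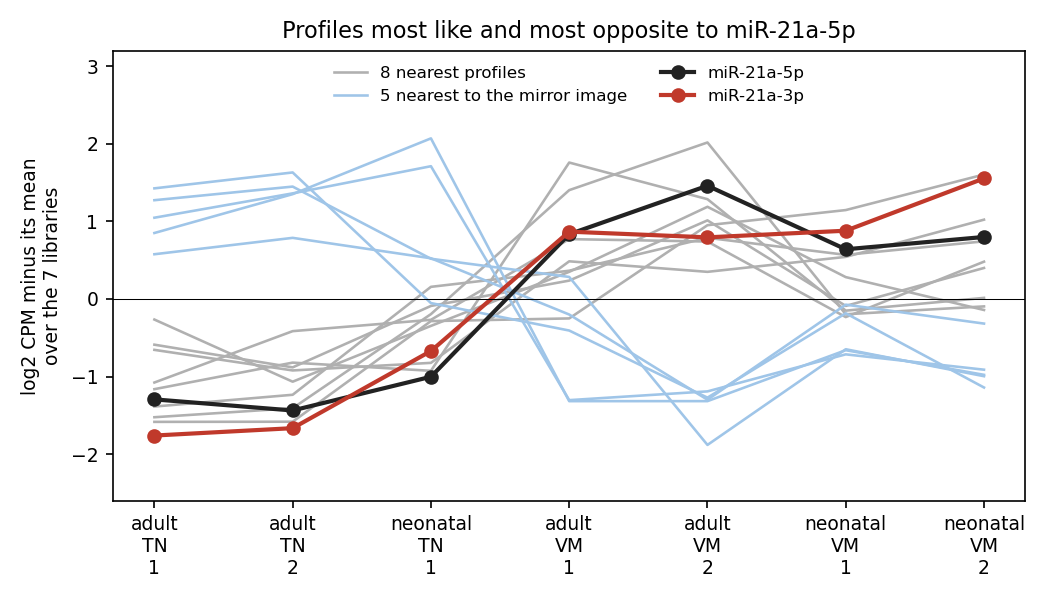
Centred log2 CPM profiles over the 7 libraries for miR-21a-5p, its nearest profiles and its nearest mirror images. The profile of miR-21a-3p runs closest to that of miR-21a-5p, and the miR-181a profiles run opposite to it.

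miR-21a was last set beside 14 other miRNAs known to change when T cells are activated, a list chosen with earlier results of these data known. Of these, 12 were tested, miR-214-3p was listed at 0 and miR-212-3p was below the filter. Over both ages 3 of the 12 were higher in VM and 1 was lower, against 10.8% and 13.9% of all tested miRNAs. The median log2 difference over both ages was 0.67 against 0.01 over all tested miRNAs. The count of higher members was not stable. It was 5 with library totals, upper quartile factors or DESeq2, 7 with the within-age contrasts averaged and 8 without the neonatal TN library. It fell when adult VM replicate 2, neonatal VM replicate 2 or either adult TN replicate was left out. The median was 0.52 without adult TN replicate 1 and 0.62 without adult TN replicate 2. In adult cells 8 of the 12 were higher in VM by the edgeR test, 1 was lower and 3 did not pass, where the shares over all tested miRNAs were 23.3% higher and 15.6% lower. The median log2 difference was 1.46 against 0.09 over all tested miRNAs. miR-155-5p, a miRNA that promotes effector responses, rose by 1.44, miR-146a-5p by 2.52 and miR-182-5p by 2.06. The 8 were not independent of each other, since miR-182-5p, miR-183-5p and miR-96-5p come from the same cluster. Among them miR-210-3p was rare, with 13 and 25 counts in adult VM and 4 and 2 in adult TN libraries. miR-96-5p was rare too and passed the filter on low counts only through VM libraries. In neonatal cells miR-222-3p alone was higher (1.20), miR-146b-5p (-1.18) and miR-132-3p (-2.11) were lower, and 9 did not pass, where the shares over all tested miRNAs were 3.12% higher and 6.6% lower. The median was -0.00 against -0.11. In neonatal cells miR-155-5p was 0.58 (edgeR adjusted p = 0.175) and miR-146a-5p 0.86 (edgeR adjusted p = 0.0713), where both arms of miR-21a passed.

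The interaction was called for 4 of the 12, miR-146a-5p, miR-146b-5p, miR-182-5p and miR-183-5p, each with a negative value. Among all tested miRNAs that share was 6.25%. The count was 6 with no filter. It fell when either adult TN replicate or neonatal VM replicate 1 was left out, and rose without adult VM replicate 1. With upper quartile factors, a minimum of 100 CPM or DESeq2, 1 member had a positive call besides. The adult count of 8 higher was 5 without adult TN replicate 1 or 2. The neonatal count of 1 higher was 3 or 4 with RLE, upper quartile or total scaling, with DESeq2, with no filter, with only the neonatal libraries fitted, or without adult VM replicate 1 or 2, and it was 2 with the largest line per name in place of the sum. The neonatal count of 2 lower was 3 with no filter, 1 with upper quartile or total scaling, a minimum of 100 CPM, the replicate block, or without adult TN replicate 1 or neonatal VM replicate 2. Neither was called lower by edgeR without adult TN replicate 2 or neonatal VM replicate 1.

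In a list of 8 miRNAs taken as those of resting T cells, miR-99a-5p had no more than 2 counts in any library and the other 7 were tested. Over both ages 2 were higher in VM (miR-139-5p and miR-101a-3p) and 2 lower (miR-181a-5p and let-7b-5p), against 10.8% and 13.9% of all tested miRNAs, with a median log2 difference of -0.39. The count of higher members was 1 with the replicate block or without adult VM replicate 1 or either neonatal VM replicate, and neither member passed when adult TN replicate 1 or 2 was left out. The count of lower members was 4 without the neonatal TN library. In adult cells the same 2 were higher in VM and 4 were lower (miR-150-5p, miR-181a-5p, miR-342-3p and let-7b-5p), against 23.3% and 15.6% of all tested miRNAs. The adult count of higher members fell when either adult TN replicate or either neonatal VM replicate was left out. The adult count of lower members fell without adult TN replicate 2 or either neonatal VM replicate, and was 3 with library totals or without robust dispersions. In neonatal cells 0 were higher and 2 were lower (miR-181a-5p and let-7b-5p), against 3.12% and 6.6% of all tested miRNAs. The neonatal count of higher members was 2 with upper quartile factors and 1 with library totals or no filter. The median was -0.57 in adult and -0.11 in neonatal cells, against 0.09 and -0.11 over all tested miRNAs. Without adult TN replicate 1 the adult median was -0.88, and without adult TN replicate 2 it was -0.41. By age 1 was higher in neonatal cells (miR-181a-5p) and 4 were lower, against 26.4% and 27.4% of all tested miRNAs, with a median of -1.90 against -0.05 over all tested miRNAs. miR-181a-5p was thus called in both comparisons, lower in VM by -2.62 and higher in neonatal cells by 0.69, whereas miR-21a-5p was called by subset and not by age.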

How the data were processed

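Per the labels' protocols, RNA of sorted splenic CD8+ T cells was turned into small RNA libraries using an Illumina TruSeq kit. The deposited table holds estimated counts per mature miRNA and precursor, with no normalization. The submitters' processing notes name mm10 as build, and the aligner and counter are not given in the sources used here. Lines were summed per mature name and rounded. Of nonzero sums, 84.0% lay within 0.02 of a whole number. Groups came from the titles, and every per-sample column was mapped.

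The 288 names that reached 10 CPM in 2 or more libraries (15.8 to 32.8 counts) were tested with edgeR 4.0.16 in R 4.3.3, using TMM factors, the quasi-likelihood test with robust dispersions and Benjamini-Hochberg adjustment at 0.05 over all 288 in each of 7 comparisons. The averages over both ages or both subsets came from an additive model. The rest were contrasts between the 4 group means, all with 7 libraries. Confidence intervals are at 95%. Arm ratios used exact permutation tests over libraries (scipy 1.17.1) and, added later, limma 3.58.1 with 0.5 added to each count. Profiles used log2 CPM with a prior count of 2. Alternatives covered scaling, filter, tool (DESeq2 1.42.0, limma voom), design and each library left out. The functions were tested on simulated data.

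The members, lists, markers and tests were chosen with earlier results of these data known. The names given are both arms, miRNAs sharing a seed, miR-21b and miR-21c, the 8 nearest and 5 mirror profiles, the neighbours by level, and 2 lists. The miRNAs ranked beside miR-21a by size of change or gain in share, and the hairpins with both arms called, were named after their values were seen.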

Additional observations from a re-analysis of the deposited data

How the results depend on the processing

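The VM to TN differences of both arms, over both ages and within each age, kept their direction and stayed past the threshold in every alternative run (19, 19 and 18 settings). Over both ages miR-21a-5p ranged from 1.89 to 2.54 on the log2 scale (highest adjusted p 0.0133) and miR-21a-3p from 2.13 to 2.55 (0.0121). In neonatal cells they ranged from 1.62 to 2.10 (0.0308) and from 1.62 to 2.31 (0.0302).

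The age results moved. Library totals shifted the median of all miRNAs by 0.45 for age over both subsets, 0.51 in VM, 0.37 in TN cells and 0.16 for VM over TN. With totals miR-21a-5p was 0.32 for age over both subsets and 0.054 in VM cells, and calls were gained by miR-21a-5p in TN cells (0.71) and miR-21a-3p in VM cells (0.93). With a minimum of 100 CPM the 5p age value was 0.033 and the 3p value in VM cells passed (0.64). With no filter the 5p values in VM cells (-0.58) and for the interaction (-0.75) passed, and the 3p age value lost its call (0.53), as it did with limma voom (0.62). With only TN libraries fitted, the 5p age value in TN cells passed (0.51).

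Leaving out 1 library at a time, miR-21a-5p ranged from -0.43 to 0.13 for age (0.13 without adult VM replicate 2), -0.74 to -0.060 in VM cells, 0.17 to 0.33 in TN cells and -1.07 to -0.37 for the interaction. miR-21a-3p ranged from 0.45 to 0.85 for age, 0.053 to 0.74 in VM and 0.88 to 1.01 in TN cells. Its value in VM cells passed without adult VM replicate 2 (adjusted p 0.0334) or neonatal VM replicate 1 (0.0486). The arm ratio ranged from -0.0025 to 0.47 between subsets (-0.0025 without neonatal VM replicate 2) and from 0.62 to 0.90 between ages. The cause of these shifts was not tested.

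Counts of called miRNAs ranged from 18 to 111 for VM over TN at both ages (71 as reported), 23 to 142 in adult (112) and 16 to 80 in neonatal cells (28). They ranged from 79 to 185 for age (155), 93 to 177 in VM (155), 69 to 179 in TN cells (138) and 6 to 86 for the interaction (23). The labels do not say whether same-numbered replicates were paired. Correlations of their deviations were 0.017, 0.138 and -0.160, which cannot tell whether they shared mice or preparation. The replicate block gave 42 calls for VM over TN, and changed no call of either arm. With 1 neonatal TN library, the spread of that group is assumed.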
